A study of Mus musculus with 17 samples.

Results

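The Ets family of transcription factors was followed here through 10 genes, Sfpi1 (which encodes PU.1), Spib, Spic, Ets1, Ets2, Etv6, Elf1, Elf4, Gabpa and Elk3, in early mouse hematopoiesis. Members were taken by the gene name on the array, and every probe of each was kept, which gave 22 of 41174 probes and 10 of 28090 gene names. mRNA was measured on 17 single-color Agilent arrays from 6 untreated populations sorted from the bone marrow of young adult female C57Bl/6 mice, with marrow pooled over mice for each replicate. The populations were Long-Term Hematopoietic Stem Cells (LT-HSC, 2 arrays, of which 1 was a pool of replicates 2 and 3), Short-Term HSCs (ST-HSC, 3 arrays), Multipotent Progenitors (MPP, 3 arrays), Common Myeloid Progenitors (CMP, 3 arrays), Granulocyte-Monocyte Progenitors (GMP, 3 arrays) and Megakaryocyte-Erythroid Progenitors (MEP, 3 arrays). LT-HSC, ST-HSC and MPP, called the HSC subsets, came from a separate sort than CMP, GMP and MEP, called the myeloid populations. In both sorts the cells had first been depleted of lineage-positive cells and enriched for c-kit, and the gates read Sca-1, CD34, FLT3 and an Fc gamma receptor on the cell surface.

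Ets proteins share a DNA-binding domain that recognizes a short GGAA core, and cells that express several members can load different ones on similar sites. PU.1 is required for myeloid and lymphoid development, switches on receptors for myeloid cytokines, and opposes the erythroid factor Gata1, each protein blocking the other. Its close relatives Spi-B and Spi-C are known from B cells and plasmacytoid dendritic cells and from iron-recycling macrophages, while Ets1 is known from lymphocytes, Etv6 from stem cell maintenance and Elk3 as a partner of serum response factor.

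The probe sequences are shown because what a probe can say depends on where it lies. PU.1 was read by 1 probe, whose 60 bases map to chr2:90939665-90953452 (mm9, plus strand), a stretch of 13788 bases, so that the probe crosses at least 1 exon junction and does not match an unspliced transcript without a break.
Sfpi1: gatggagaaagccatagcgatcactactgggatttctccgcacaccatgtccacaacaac

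Ets1 was read by 4 probes on the plus strand of chromosome 9. Probe 2, at chr9:32561826-32561885, and probe 4, at chr9:32561816-32561875, fall on the end of the coding sequence, in the part for the DNA-binding domain, and overlap by 50 bases. They were designed on different database transcripts and are not identical where they overlap. Of the 50 shared positions 46 hold the same base, and the other 4 are shown in capitals. Counted from 1 at the 5′ end of probe 2, with the base of probe 2 first, the differences are A10G, G11C, G37C and C38G.
Ets1 probe 2: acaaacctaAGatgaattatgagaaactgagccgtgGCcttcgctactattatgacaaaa
Ets1 probe 4: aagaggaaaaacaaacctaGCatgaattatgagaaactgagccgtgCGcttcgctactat

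Probe 3, at chr9:32562878-32562937, and probe 1, at chr9:32564860-32564919, lie further 3′ in the same transcript, 992 and 2974 bases beyond the end of probe 2. The array design places the 3 probes of that transcript at positions 1480, 2532 and 4514 of it. By these positions they do not overlap the other pair, and the first 30 bases of each are shown.
Ets1 probe 1: gttggggtctatataaacctgttgaactct
Ets1 probe 3: acttagtgttagttacggggcggtaagtct

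All values below are quantile-normalized log2 intensities, called levels, on which a difference of 1 is a 2-fold change, and levels are compared between populations for the same probe and not between probes. Probes are called changed at a Benjamini-Hochberg adjusted p under 0.05 over all 41174 probes in limma. The scanner files give 4 scan days, which were grouped here into 3 runs by how close their dates lay. Run 2 joins scan day 2, with GMP, CMP and MPP, and scan day 3, with MEP and ST-HSC. In run 1 were the numbered arrays of CMP, GMP and MEP, run 3 the numbered arrays of ST-HSC and MPP with both LT-HSC arrays, and run 2 the unnumbered array of each of the other 5 populations. Run 2 is therefore the only run with HSC subsets and myeloid populations side by side. On the unnumbered LT-HSC array, the dimmest, 41.4% of spots were well above background against 48.2% to 70.1% on the others. No member probe was saturated on any array, and 13 of 22 were well above background on all 17.

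The markers of the labels differed between the sorted populations. All 5 HSC markers were higher in the HSC subsets than in the myeloid populations, all 5 GMP markers were higher in GMP than in MEP and all 4 measured MEP markers were lower in GMP than in MEP. Over all gene names, each by its brightest probe, 21.7% were higher in the HSC subsets. By the same reading 10.5% were higher and 8.51% lower in GMP than in MEP. The mean of the GMP markers was also 14.07 to 15 in ST-HSC against 13.19 to 14.34 in CMP, and that of the MEP markers 10.52 to 11.56 in LT-HSC against 10.02 to 11.28 in CMP. Markers of other cells were present as well. The mean level of 8 B cell genes was 8.76 and 9.27 on the LT-HSC arrays against 6.06 to 7.32 elsewhere, and that of 6 T cell genes was 6.70 and 6.77 against 3.69 to 6.48. The mean of the mature erythroid genes was 10.21 to 11.54 in MEP and 9.08 to 9.5 in LT-HSC. The mean of 8 macrophage genes was 8.68 to 9.48 on ST-HSC arrays and 7.13 to 8.37 elsewhere. In sorted bulk samples, fewer cells that express a gene and less RNA of it per cell cannot be told apart.

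Across the 6 populations, 15 of the 22 member probes, from 8 of the 10 genes, passed the F-test, where 40.6% of all probes did. Ets2 and Elf4 had no probe past it. MEP had the lowest mean of 9 of these 15 probes. When the means of each probe were put in order, only 7 of 110 neighboring pairs differed, so most of the ladder is within the spread between arrays, and those that passed were 1 of Spic, 2 of Ets1, 2 of Etv6 and 2 of Elk3.

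**Figure D1:**
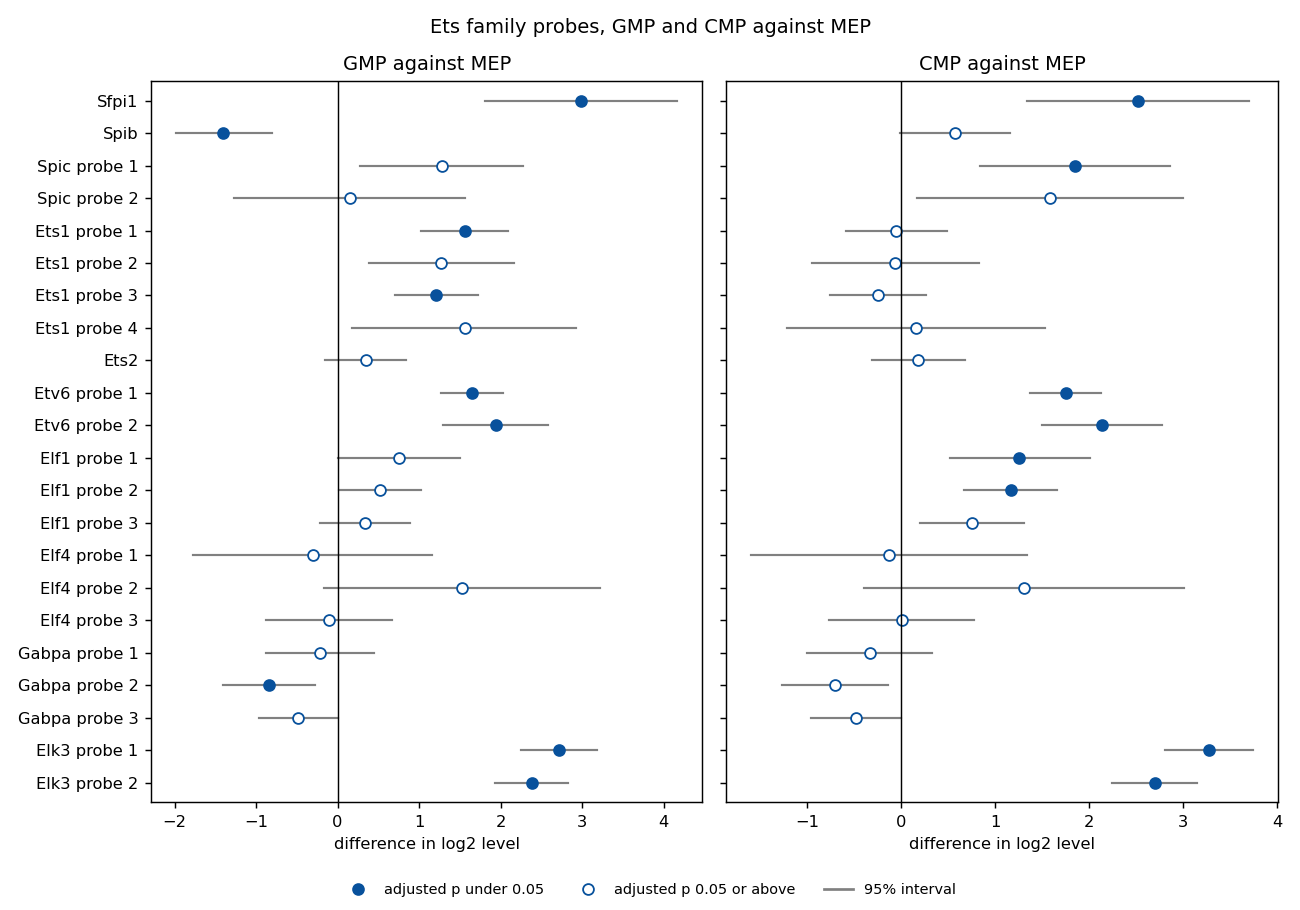
Difference in log2 level of each of the 22 probes between GMP and MEP (left) and between CMP and MEP (right), 3 arrays a population. Points are the fitted differences and lines their unadjusted 95% intervals, and filled points passed the adjusted test. Elk3, Sfpi1 and Etv6 stand to the right in both panels, and Spib is the member with the lowest difference in the left one.

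Every member called within the myeloid populations was called against MEP. Spib and Ets1 were called there for GMP only, and were also called between CMP and GMP. Between GMP and MEP, 7 member probes were higher in GMP and 2 were lower, against 9.56% and 7.81% of all probes. The 7 belonged to Sfpi1, Ets1, Etv6 and Elk3, and the 2 to Spib and Gabpa. Between CMP and MEP, 8 were higher in CMP and 0 lower, against 9.43% and 7.24% of all probes, and they belonged to Sfpi1, Spic, Etv6, Elf1 and Elk3. At an unadjusted p under 0.05 limma had 1 lower, Gabpa probe 2 at -0.70 (adjusted p = 0.0907), which passed with run in the fit (adjusted p = 0.0143). The median difference over the 22 probes was 0.98 for GMP against MEP and 0.66 for CMP against MEP, where the median over all probes was -0.07 and -0.10. Between CMP and GMP, 1 member probe (Spib) was higher in CMP and 2 (both of Ets1) were lower, with 2.93% and 1.84% of all probes called. Fitting the run as well gave 2 members higher and 4 lower, where 4.76% and 3.59% of all probes were called.

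The steps above the myeloid populations came next. From MPP to CMP, 5 probes were higher in MPP (Spic, Ets1 and Elk3) and 1 lower (Spib), against 5.39% and 6.75% of all probes. Without MPP replicate 2, CMP replicate 1 or CMP replicate 2, 2 were called higher and 1 lower, and with run in the fit 2 higher and 0 lower, where 2.16% and 1.57% of all probes were called. Between ST-HSC and MPP, 0 of 22 were higher and 0 lower, where 0.874% and 1.15% of all probes were called. At an unadjusted p under 0.05 limma had 0 higher and 1 lower in ST-HSC, Ets1 probe 1 at -0.87 (adjusted p = 0.133), which passed with run in the fit (adjusted p = 0.0221) and, at -1.15 (adjusted p = 0.0202), without the unnumbered MPP array. Between LT-HSC and ST-HSC, 1 (Ets1 probe 1) was higher and 0 lower, against 2.49% and 0.852% of all probes. With run in the fit 5.11% and 3.71% of all probes were called, and of the members 1 was higher and 4 were lower in LT-HSC, namely Spic probe 2 at -2.12 (adjusted p = 0.0215), Etv6 probes 1 and 2 at -0.63 and -0.62 (adjusted p = 0.0352 and 0.0122) and Elf1 probe 2 at -0.84 (adjusted p = 0.0351).

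In mean level over all arrays, PU.1 mRNA was highest in GMP and CMP and lowest in MEP. The Sfpi1 probe read 7.67, 7.44 and 7.93 in GMP and 7.22, 7.02 and 7.38 in CMP. In MEP it read 5.27 and 5.41 on the numbered arrays and 3.38 on the unnumbered array, where it was not well above background. No MEP array came near the GMP or CMP arrays. GMP exceeded MEP by 2.99 ± 0.55 (SE; 7.96-fold, adjusted p = 0.00135) and CMP exceeded MEP by 2.52 ± 0.55 (SE; 5.73-fold, adjusted p = 0.00538). After normexp background correction, which adds an offset of 50 to every intensity and so draws low levels together, the differences were 1.32 and 1.01 and still passed. Within run 1 they were 2.35 and 1.86 over 2 arrays each and within run 2 they were 4.29 and 3.84 over 1 array each. In run 2 the MEP array lay on another slide and scan day than the GMP and CMP arrays. Without the unnumbered MEP array the differences were 2.34 and 1.87 and passed. CMP minus GMP was -0.47 (adjusted p = 0.987, 95% interval -1.65 to 0.71).

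The HSC subsets lay between these groups in mean PU.1 level, and where they lay moved with the run. LT-HSC read 5.13 and 6.04, ST-HSC 5.79, 5.12 and 6.77, and MPP 6.0, 5.61 and 7.02. The highest ST-HSC and MPP arrays were the unnumbered ones of run 2, and the mean of the run 3 arrays minus that array was -1.31 in ST-HSC and -1.21 in MPP. PU.1 was lower in LT-HSC than in GMP, at -2.10 ± 0.61 (SE, adjusted p = 0.0213), and in ST-HSC than in GMP, at -1.79 ± 0.55 (SE, adjusted p = 0.0355), while MPP exceeded MEP by 1.52 ± 0.55 (SE, adjusted p = 0.0475). These 3 and the 2 above were all the pairs of populations that differed, of 15. LT-HSC and ST-HSC minus GMP were -0.40 and -0.51 with run in the fit and did not pass (adjusted p = 0.734 and 0.75), while LT-HSC, ST-HSC and MPP exceeded MEP by 2.59, 2.49 and 2.80 (adjusted p = 0.0185, 0.00726 and 0.00294).

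Spib went the other way from PU.1 at the GMP branch. Its probe, at chr7:51781646-51781705 (mm9, minus strand), read 5.74, 5.92 and 6.24 in CMP, 4.95, 5.83 and 5.40 in MEP, and 4.11, 3.75 and 4.13 in GMP, where 1 of 3 arrays was well above background. GMP was below every array of the other myeloid populations. CMP exceeded GMP by 1.97 ± 0.27 (SE, adjusted p = 0.000828), and GMP minus MEP was -1.40 ± 0.27 (SE, adjusted p = 0.00213), with within-run differences of -1.68 and -0.84. After normexp correction these were 0.52 and -0.33 and still passed. In LT-HSC, ST-HSC and MPP the probe read 4.19 to 5.16, and MPP minus CMP was -1.36 ± 0.27 (SE, adjusted p = 0.00725). With run in the fit that last difference was -0.81 and no longer passed (adjusted p = 0.192), while LT-HSC, ST-HSC and MPP then exceeded GMP by 1.40, 1.14 and 1.15 (adjusted p = 0.0272, 0.0376 and 0.0251).

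Genes of plasmacytoid dendritic cells, a cell type that uses Spi-B, moved with Spib between CMP and GMP. Of 6 such genes 3 were higher in CMP and none was lower, against 3.65% and 2.23% of all gene names. The 3 were the cell surface protein gene Ly6d at 3.53, the chemokine receptor gene Ccr9 at 1.48 and the E protein gene Tcf4 at 1.24. The mean level of the 6 was 8.37 to 8.60 on CMP arrays and 6.60 to 6.98 on GMP arrays, and Siglech, a defining marker, was well above background on all 3 CMP arrays and on no GMP array. In LT-HSC, ST-HSC and MPP, where Spib was called below CMP only without run in the fit, the mean of the 6 was 9.35 to 9.45, 7.75 to 7.99 and 8.83 to 9.53. In MEP, where Spib was higher than in GMP, it was 7.49 to 8.36, and 3 of the 6 were lower in GMP than in MEP, against 8.51% of all gene names. The mean of the 8 B cell genes was 6.31 to 7.08 on CMP arrays and 6.07 to 6.83 on GMP arrays. The part of such cells in the difference of Spib was not tested.

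Spic mRNA was higher in the HSC subsets on probe 1, while its other probe did not show this for LT-HSC. Probe 1, at chr10:88138053-88138112 (mm9, minus strand), read 8.04 and 8.90 in LT-HSC, 8.75, 9.09 and 9.13 in ST-HSC and 8.42, 8.10 and 8.71 in MPP. It read 7.24, 6.03 and 6.31 in CMP, 6.43, 5.31 and 6.11 in GMP and 5.67, 3.70 and 4.66 in MEP, the first of each being the unnumbered array. No array of an HSC subset overlapped a myeloid array. The HSC subsets exceeded the myeloid populations by 2.91 ± 0.28 (SE, adjusted p = 4.85e-06), by 2.47 within run 2, by 2.43 with run in the fit (adjusted p = 0.002) and by 1.65 after normexp correction, which passed. The step from MPP down to CMP was 1.88 ± 0.47 (SE, adjusted p = 0.0207) and was the only step between neighbors in the order that passed. It lost the call without MPP replicate 2, CMP replicate 1 or CMP replicate 2, at 1.88, 1.64 and 1.77, and with run in the fit, at 1.38 (adjusted p = 0.118). The step from GMP down to MEP, 1.28 ± 0.47 (SE, adjusted p = 0.0846), passed with run in the fit (adjusted p = 0.0109), but only 1 of 3 MEP arrays, the unnumbered one, was well above background on this probe. CMP exceeded MEP by 1.85 (adjusted p = 0.0139), a call that was lost without the unnumbered CMP array or MEP replicate 1, at 1.49 and 1.36 (adjusted p = 0.064 and 0.0647).

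The second Spic probe, 53 bases away in the same transcript, had a weaker signal and differed between the sorts in the same direction. It stood clear of background on 9 of 17 arrays, so that the size of the difference rests on dim signals. These were all arrays of ST-HSC and MPP, 1 of 2 of LT-HSC, 1 of 3 each of CMP and GMP and none of MEP. It differed by 2.17 ± 0.39 (SE, adjusted p = 0.000627) between HSC subsets and myeloid populations, by 0.46 after normexp correction, which passed, by 1.66 with run in the fit (adjusted p = 0.0416) and by 1.67 with scan day in the fit, where it did not pass (adjusted p = 0.0602). With MEP set to the background bound of its arrays, Spic by this probe was at least 3.93-fold higher in ST-HSC and at least 2.39-fold higher in MPP. The bounds were not tested. The fitted differences without the bound were 3.77 and 3.05 (adjusted p = 0.000689 and 0.00275). LT-HSC minus CMP was -0.17 on this probe (adjusted p = 0.938), and LT-HSC did not differ from GMP or MEP either at the threshold (adjusted p = 0.224 and 0.17). The LT-HSC arrays, at 5.25 and 3.44, fell below the ST-HSC arrays, at 5.88, 7.03 and 7.16. The 3.44 came from the unnumbered array, the dimmest, and was not well above background. The difference of -2.35 ± 0.73 (SE) did not pass (adjusted p = 0.103), and it was -3.25 with that array as the only one of LT-HSC. Over both LT-HSC arrays it passed with run in the fit, at -2.12 (adjusted p = 0.0215), and after normexp background correction, at -0.65 (adjusted p = 0.0409). The 2 probes had a correlation of 0.84 over the 17 arrays, which share populations and runs.

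Of 8 macrophage genes, red pulp type included, 4 were higher in the HSC subsets than in the myeloid populations and none was lower, against 21.7% and 19.1% of all gene names. They were led by the heme oxygenase gene Hmox1 at 1.71, the complement gene C1qb at 1.41 and C1qa at 1.35. Their mean level was highest on ST-HSC arrays, as given above, and 7.77 to 8.15 in LT-HSC and 7.32 to 8.07 in MPP, where Spic probe 1 stood above 8 as well, and it was 7.98 to 8.37 in GMP, where Spic was low. The part of macrophages in the level of Spic was not tested.

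**Figure D2:**
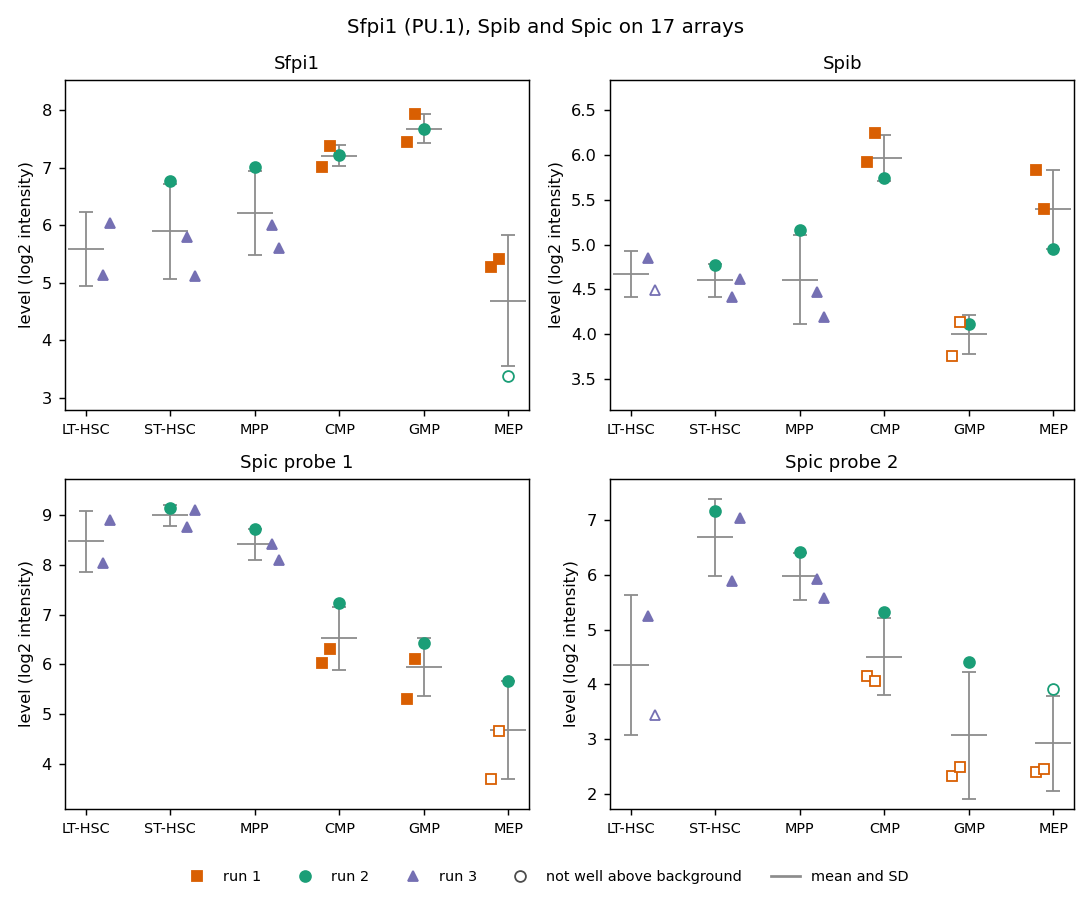
Log2 level of the probes of Sfpi1 (PU.1), Spib and Spic on each of 17 arrays, by population. Symbols mark the scanning run, open symbols are arrays where the probe was not well above background, and bars are means with SD (n = 2 for LT-HSC, 3 for the others). PU.1 peaked in GMP at 7.44 to 7.93, Spib was lowest there, and Spic probe 1 stayed above 8 on all HSC subset arrays.

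The 4 probes of Ets1 agreed on the myeloid branch point and disagreed between the sorts. In CMP, GMP and MEP all of them were higher on every GMP array than on any CMP or MEP array. Probe 1 read 8.31, 8.26 and 7.85 in GMP, 6.61, 6.66 and 6.33 in CMP and 6.64, 6.40 and 6.69 in MEP. GMP exceeded MEP by 1.56 ± 0.25 (SE, adjusted p = 0.000468) and CMP minus GMP was -1.60 ± 0.25 (SE, adjusted p = 0.00189) on this probe. On probe 3, where MEP was also below its neighbor ST-HSC by 1.11 (adjusted p = 0.00291), the same differences were 1.21 ± 0.24 (SE, adjusted p = 0.00232) and -1.44 ± 0.24 (SE, adjusted p = 0.00281). After normexp correction GMP exceeded MEP by 0.88 and 0.53 on probes 1 and 3, and still passed. On probes 2 and 4 GMP exceeded MEP by 1.27 ± 0.41 and 1.56 ± 0.63 (SE), which did not pass (adjusted p = 0.0509 and 0.128) and passed with run in the fit (adjusted p = 0.00352 and 0.00937). Probe 2 also passed without any of LT-HSC replicate 2-3, the unnumbered LT-HSC, CMP or MPP array, CMP replicate 1 or MEP replicate 2, with adjusted p from 0.0239 to 0.0491. CMP minus GMP was -1.33 and -1.39 on probes 2 and 4, which did not pass (adjusted p = 0.106 and 0.389) and passed with run in the fit (adjusted p = 0.00856 and 0.044). CMP and MEP did not differ on any of the 4, the farthest from 0 being -0.24 on probe 3.

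Against the HSC subsets the probes split by their place in the transcript. On the 3′ probes Ets1 was high there, with probe 1 at 9.74 and 9.20 in LT-HSC, 8.54, 8.48 and 8.08 in ST-HSC and 9.62, 9.42 and 8.66 in MPP. Probe 1 dropped from MPP to CMP by 2.70 ± 0.25 (SE; 6.49-fold, adjusted p = 3.95e-05), and probe 3 by 1.54 ± 0.24 (SE, adjusted p = 0.00144). Over all arrays the HSC subsets exceeded the myeloid populations by 1.94 ± 0.15 (SE, adjusted p = 7.63e-07) on probe 1 and by 0.96 ± 0.14 (SE, adjusted p = 0.000133) on probe 3. The coding probes gave the other sign, with the HSC subsets lower, at -0.80 ± 0.25 (SE, adjusted p = 0.0201) on probe 2 and at -1.71 ± 0.38 (SE, adjusted p = 0.00281) on probe 4. Without the unnumbered LT-HSC array probe 2 was at -0.67 and did not pass (adjusted p = 0.0705). The mean of the 4 probes differed by 0.10 (adjusted p = 0.647).

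The disagreement moved with the scanning run. In CMP and MEP, probe 2 read 5.78 and 5.90 on the run 2 arrays and 6.92 to 7.22 on those of run 1. In GMP it read 7.83 in run 2 and 7.84 and 8.23 in run 1, while in MPP it read 7.13 in run 2 and 6.35 and 6.31 in run 3. Probe 4 of MPP was at 5.05 in run 2 and at 2.83 and 3.16 in run 3, and it was not well above background on either LT-HSC array. Averaged over the populations that 2 runs share, run 1 minus run 2 was 0.79 on probe 4 and run 3 minus run 2 was -1.78, while on probe 1 they were -0.16 and 0.64. Within run 2, whose 5 arrays lay on 2 slides scanned on different days, the HSC subsets were higher on all 4 probes, by 1.18, 0.29, 0.78 and 0.45 in the order of their numbers. With run in the fit the differences were 1.34 (adjusted p = 0.00236) and 0.88 (adjusted p = 0.0382) on probes 1 and 3, and 0.29 (adjusted p = 0.622) and 0.20 (adjusted p = 0.838) on probes 2 and 4.

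Across the 17 arrays the pairs kept apart. Probes 1 and 3 had a correlation of 0.89 and the overlapping probes 2 and 4 one of 0.90, whereas probe 1 had -0.16 with probe 2 and -0.44 with probe 4. The arrays share populations and runs, so these are descriptions. The study lists Ets1 and Elk3 among predicted targets of microRNAs of HSC and of GMP, and Ets1 also of MEP. Those lists were chosen in part on expression in these samples, so the differences here are not independent evidence for them.

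Ets1 probe 1 was also the only member called between LT-HSC and ST-HSC, at 1.10 ± 0.28 (SE, adjusted p = 0.0489), and by 0.96 within run 3. The call was lost in 15 of 17 fits with 1 array left out, at differences of 0.83 to 1.19 and 1.37 without the unnumbered LT-HSC array (adjusted p = 0.0637), where 1 LT-HSC array is assumed to vary like the other groups. It was kept without MPP replicate 2 or the unnumbered MPP array. Lymphocyte genes, which are expressed in cells that use Ets1, were raised on the same 2 arrays as given above. Of the 8 B cell genes 3 were higher in LT-HSC than in ST-HSC and of the 6 T cell genes 1, and none was lower, against 3.5% and 1.08% of all gene names. Their part in the difference was not tested.

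**Figure D3:**
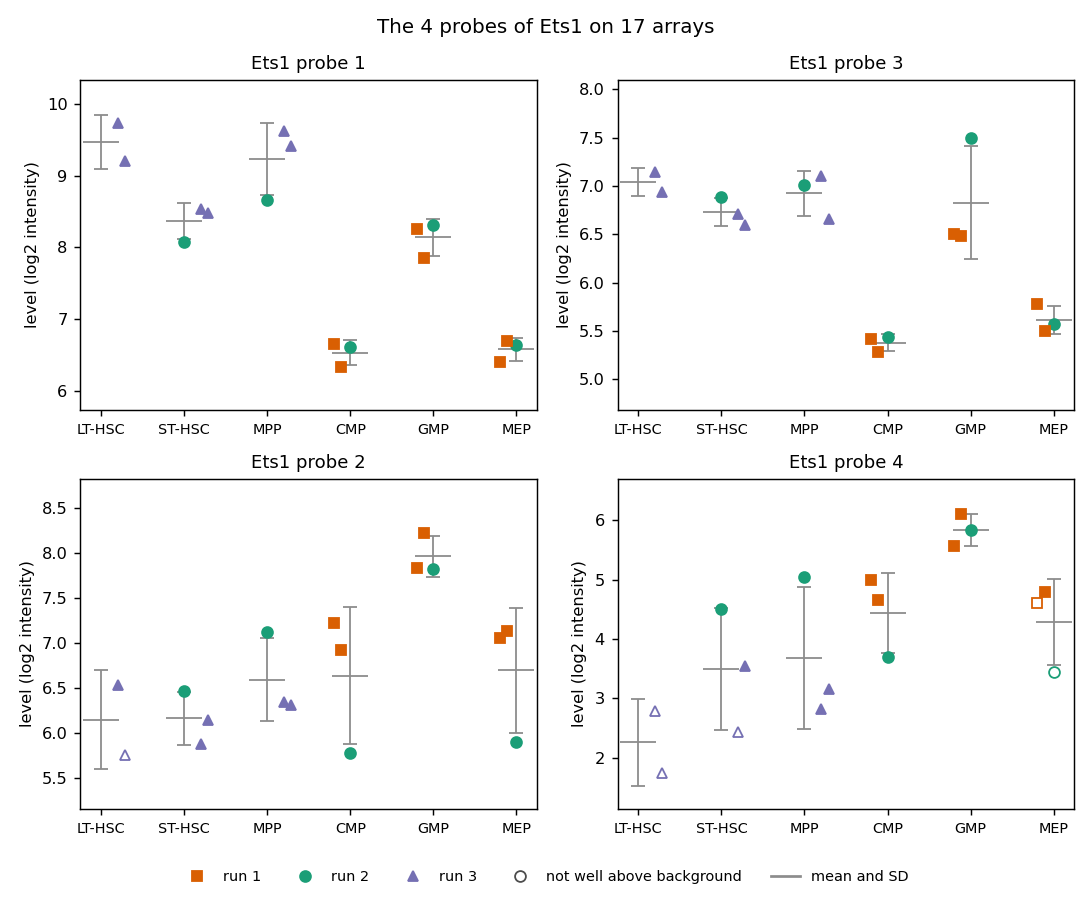
Log2 level of the 4 probes of Ets1 on each of 17 arrays, the 3′ probes 1 and 3 above and the overlapping coding probes 2 and 4 below. Symbols mark the run, open symbols are not well above background, and bars are means with SD (n = 2 for LT-HSC, 3 for the others). GMP stands above CMP and MEP in every panel, while the order of the HSC subsets against CMP and MEP differs between rows and, in the lower row, between runs.

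Elk3 was high in the HSC subsets and low in MEP. Probe 1, at chr10:92712123-92712182 (mm9, minus strand), read 12.84, 12.71 and 12.78 in MPP, 12.52, 12.35 and 12.22 in ST-HSC and 12.15 and 12.32 in LT-HSC. It read 12.24, 11.65 and 11.65 in CMP, 11.46, 11.18 and 11.21 in GMP and 8.95, 8.10 and 8.64 in MEP. Every MEP array lay more than 2 units below every other array. MPP exceeded MEP by 4.21 ± 0.22 (SE; 18.5-fold, adjusted p = 2.3e-08), CMP exceeded MEP by 3.28 ± 0.22 (SE, adjusted p = 4.35e-07) and GMP exceeded MEP by 2.72 ± 0.22 (SE, adjusted p = 1.17e-06). All 5 other populations exceeded MEP on both probes, and the step from GMP to MEP was the only one between neighbors in the order that passed. The step from CMP to GMP, 0.56, passed on probe 1 with run in the fit (adjusted p = 0.0357) and that of 0.32 on probe 2 did not (adjusted p = 0.385).

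Outside MEP the differences of Elk3 between the sorts were smaller, and the mean of the myeloid populations includes MEP. On probe 1 LT-HSC and ST-HSC minus CMP were 0.39 and 0.52 (adjusted p = 0.277 and 0.143), and -0.03 and 0.13 with run in the fit. Minus GMP they were 0.95 and 1.08 (adjusted p = 0.0102 and 0.00392), and 0.53 and 0.69 with run in the fit (adjusted p = 0.159 and 0.0509). The HSC subsets exceeded the myeloid populations by 1.89 ± 0.13 (SE, adjusted p = 2.77e-07) on probe 1 and 1.52 ± 0.13 (SE, adjusted p = 1.47e-06) on probe 2, by 1.62 and 1.23 within run 2, and by 1.49 and 1.11 with run in the fit (adjusted p = 0.000387 and 0.00446). MPP exceeded CMP by 0.93 ± 0.22 (SE, adjusted p = 0.0151) and 0.73 ± 0.21 (SE, adjusted p = 0.0399). With run in the fit this step was 0.55 and 0.37 (adjusted p = 0.179 and 0.519). Without MPP replicate 2, CMP replicate 1 or CMP replicate 2 it was 0.83 to 0.90 on probe 1 and lost the call (adjusted p = 0.0668 to 0.0782), and probe 2 lost it in 7 of 17 such fits, at 0.60 to 0.73. The 2 probes had a correlation of 0.98 over the arrays.

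Etv6, a repressor of the family, was lowest in MEP. Probe 1 read 8.13, 7.97 and 8.09 in MEP, 9.91, 9.74 and 9.49 in GMP and 10.14, 9.72 and 9.59 in CMP. In MPP it read 10.04, 10 and 10.37, in ST-HSC 10.05, 9.98 and 10.01, and in LT-HSC 9.14 and 9.5, with MEP below all of them. GMP exceeded MEP by 1.65 ± 0.18 (SE; 3.14-fold, adjusted p = 1.49e-05) and CMP exceeded MEP by 1.75 ± 0.18 (SE, adjusted p = 1.17e-05), and on probe 2 the differences were 1.94 ± 0.30 (SE, adjusted p = 0.000321) and 2.14 ± 0.30 (SE, adjusted p = 0.000171). Both probes were also higher in each HSC subset than in MEP, and the step between neighbors that passed was that from LT-HSC to MEP, at 1.26 and 1.18 (adjusted p = 0.000354 and 0.0158). LT-HSC was below MPP on probe 1, at -0.82 ± 0.20 (SE, adjusted p = 0.0272). The HSC subsets exceeded the mean of the myeloid populations, MEP included, by 0.63 ± 0.11 (SE, adjusted p = 0.000361) on probe 1. On probe 2 this difference was 0.24 (adjusted p = 0.317), and it passed at 0.72 with run in the fit (adjusted p = 0.00336). On probe 1 LT-HSC, ST-HSC and MPP minus CMP were -0.49, 0.20 and 0.33, and minus GMP they were -0.39, 0.30 and 0.43. None of these passed.

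Elf1, an activator in blood cells, was higher in CMP than in MEP on probes 1 and 2, and its probes differed in the other comparisons. Probe 1 read 9.84 and 10.48 in LT-HSC, 10.47, 10.58 and 10.33 in ST-HSC, 11.12, 10.64 and 10.78 in MPP and 9.68, 9.23 and 9.15 in GMP. It read 10.58, 9.5 and 9.51 in CMP and 9.28, 8.01 and 8.51 in MEP, and in both the highest array was the unnumbered one of run 2. CMP exceeded MEP by 1.26 ± 0.34 (SE, adjusted p = 0.0216) on probe 1 and by 1.17 ± 0.23 (SE, adjusted p = 0.00274) on probe 2. On probe 3 the difference was 0.76 (adjusted p = 0.0639), which passed with run in the fit (adjusted p = 0.0252). On probe 1 the call was lost without the unnumbered CMP array, MEP replicate 1 or MEP replicate 2, at 0.91, 0.97 and 1.22. GMP minus MEP was 0.75, 0.52 and 0.34 on probes 1, 2 and 3 and did not pass (adjusted p = 0.185, 0.167 and 0.498). Probe 1 passed with run in the fit (adjusted p = 0.0185) and probe 2 did not (adjusted p = 0.0594), and each passed when 1 unnumbered array was left out, probe 1 at 1.10 without that of MEP (adjusted p = 0.0427) and probe 2 at 0.78 without that of GMP (adjusted p = 0.0228). The HSC subsets exceeded the myeloid populations by 1.22 ± 0.21 (SE, adjusted p = 0.00038) on probe 1, which was 0.71 within run 2 and 0.52 with run in the fit (adjusted p = 0.188), and by 0.04 (adjusted p = 0.828) on probe 2 and 0.12 (adjusted p = 0.581) on probe 3. Probe 3 did not pass the F-test (adjusted p = 0.178).

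**Figure D4:**
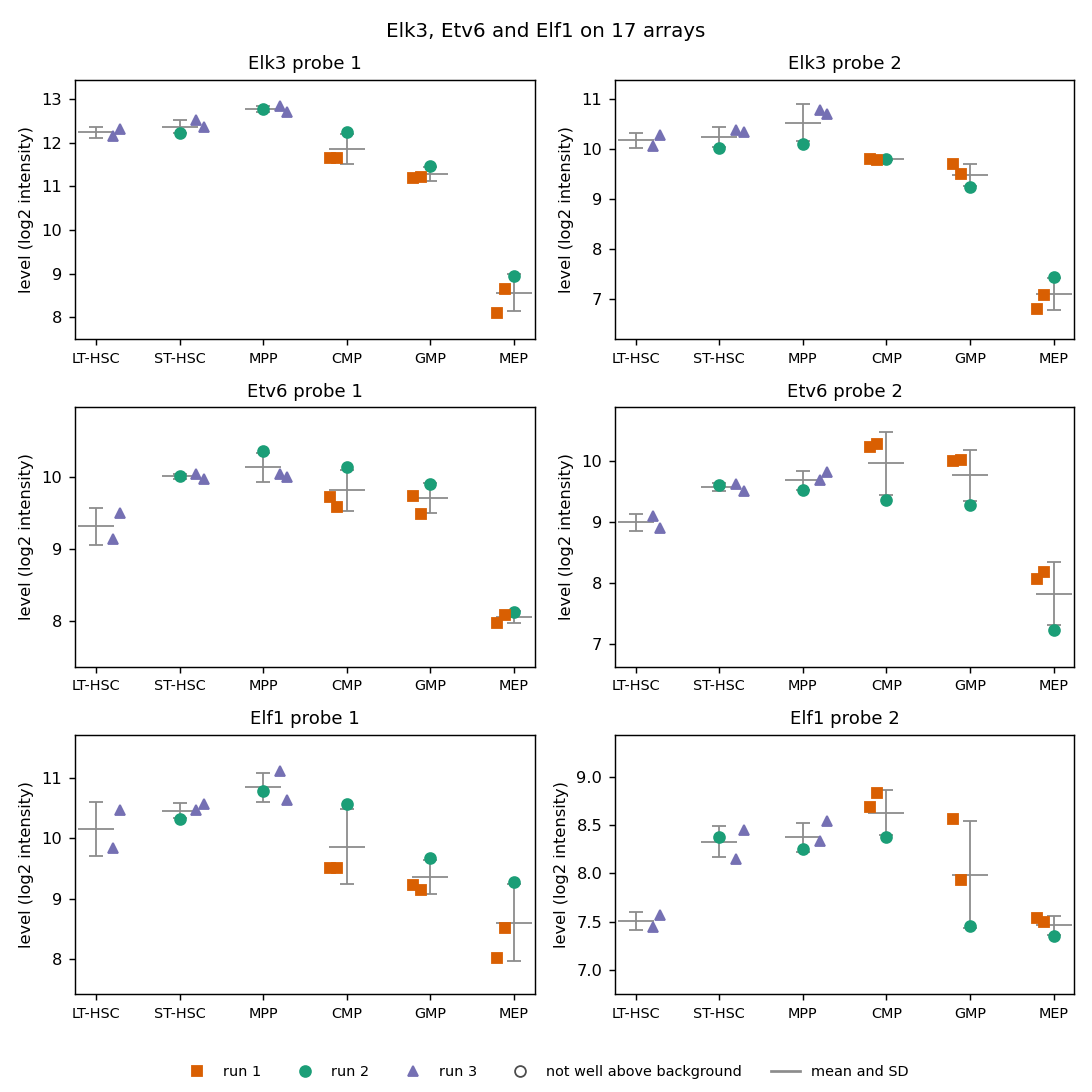
Log2 level of the probes of Elk3 and Etv6 and of probes 1 and 2 of Elf1 on each of 17 arrays, by population, with symbols for the run and bars for the mean with SD (n = 2 for LT-HSC, 3 for the others). MEP has the lowest mean in each panel, by the widest margin for Elk3, where it read 8.10 to 8.95 on probe 1. On Elf1 probe 2 LT-HSC was only 0.04 above it (adjusted p = 0.943).

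Elf4, a relative of Elf1, was dim, and nothing was called on its 3 probes in the comparisons made. Probe 1 was well above background on 14 of 17 arrays and read between 4.45 and 6.77 on all but 1 of the 17. That array was the unnumbered MEP array, at 8.10, against 4.67 and 4.82 on the other MEP arrays. Without it Elf4 probe 1 passed in LT-HSC against ST-HSC, at -1.32 (adjusted p = 0.0432), and in HSC subsets against myeloid populations, at 0.56 (adjusted p = 0.023). Probe 2 was well above background on 12 of 17 arrays and did not pass the F-test (adjusted p = 0.201), with GMP minus MEP at 1.53 ± 0.79 (SE, adjusted p = 0.257). Probe 3 was well above background on 3 of 17 arrays and gives no usable level.

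Gabpa, the DNA-binding subunit of GABP and an activator of housekeeping genes, had small differences. Probe 2 read 9.60, 8.96 and 8.98 in MEP and 8.46, 8.29 and 8.26 in GMP, and GMP minus MEP was -0.84 ± 0.26 (SE, adjusted p = 0.0385). The call was lost when any of 6 arrays was left out, the 3 GMP arrays, the unnumbered MEP array, MEP replicate 2 or CMP replicate 1, at differences from -0.95 to -0.63. On probes 1 and 3 it was -0.22 and -0.48 (adjusted p = 0.787 and 0.201). The HSC subsets were higher by 0.61 ± 0.18 (SE, adjusted p = 0.0179) on probe 1 and by 0.53 ± 0.16 (SE, adjusted p = 0.0156) on probe 2, while probe 3 went the other way, at -0.33 ± 0.13 (SE, adjusted p = 0.0617). Probe 3 passed after normexp correction (-0.26, adjusted p = 0.0134), in the authors' log2 table (-0.36, adjusted p = 0.0134) and without MPP replicate 2, LT-HSC replicate 2-3 or the unnumbered GMP or CMP array, at -0.43 to -0.37. Probe 2 was at 0.46 and did not pass without LT-HSC replicate 2-3 (adjusted p = 0.0519). The differences of probes 1 and 2 turned to -0.05 and -0.17 within run 2 and -0.08 and -0.15 with run in the fit. On probe 1 the CMP, GMP and MEP arrays of run 1 minus that of run 2 gave -1.03 to -0.55.

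Ets2, a target of growth factor signaling, showed no difference that passed. Its levels ran from 8.72 to 9.80 over the 17 arrays. The population means lay between 8.99 in MEP and 9.56 in LT-HSC (F-test, adjusted p = 0.285). The HSC subsets were 0.35 ± 0.14 (SE) above the myeloid populations, with an adjusted p of 0.0562 that fell to 0.0472 without MPP replicate 3 and to 0.0175 without GMP replicate 1.

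For the split between the sorts as a whole, 10 member probes were higher in the HSC subsets and 3 lower, where 18.2% and 23.1% of all probes were called. Those that were higher belonged to Spic, Ets1, Etv6, Elf1, Gabpa and Elk3, and those that were lower to Spib and Ets1. Spib was at -0.49 ± 0.16 (SE, adjusted p = 0.0271), and its sign turned to 0.29 when arrays were scaled to their 75th percentile, a scaling that moved the median of all probes to 0.31. Its call was lost in 7 of 17 fits with 1 array left out, those without ST-HSC replicate 2, MPP replicate 2 or 3, the unnumbered LT-HSC array, MEP replicate 1, GMP replicate 2 or CMP replicate 2, at -0.47 to -0.42. Within run 2, 8 of these 13 probes kept their sign and 5 did not, namely Spib, Ets1 probes 2 and 4 and Gabpa probes 1 and 2. With run in the fit 8 probes were called, all higher, where 6.86% of all probes were higher and 7.64% lower. PU.1 was at -0.63 ± 0.33 (SE) in this comparison (adjusted p = 0.146), 0.81 higher within run 2 and 0.79 higher with run in the fit (adjusted p = 0.333), and it passed at -0.85 (adjusted p = 0.0223) when the unnumbered MEP array was left out, at -0.39 (adjusted p = 0.0161) after normexp correction and at -0.50 (adjusted p = 0.0318) in the authors' log2 table. With run in the fit LT-HSC, ST-HSC and MPP exceeded MEP by 2.49 to 2.80 in PU.1. Their differences from CMP, -0.03 to 0.28, and from GMP, -0.51 to -0.19, did not pass. The sort and most of the run move together in the comparison of the sorts, and only the 5 arrays of run 2 separate them.

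**Figure D5:**
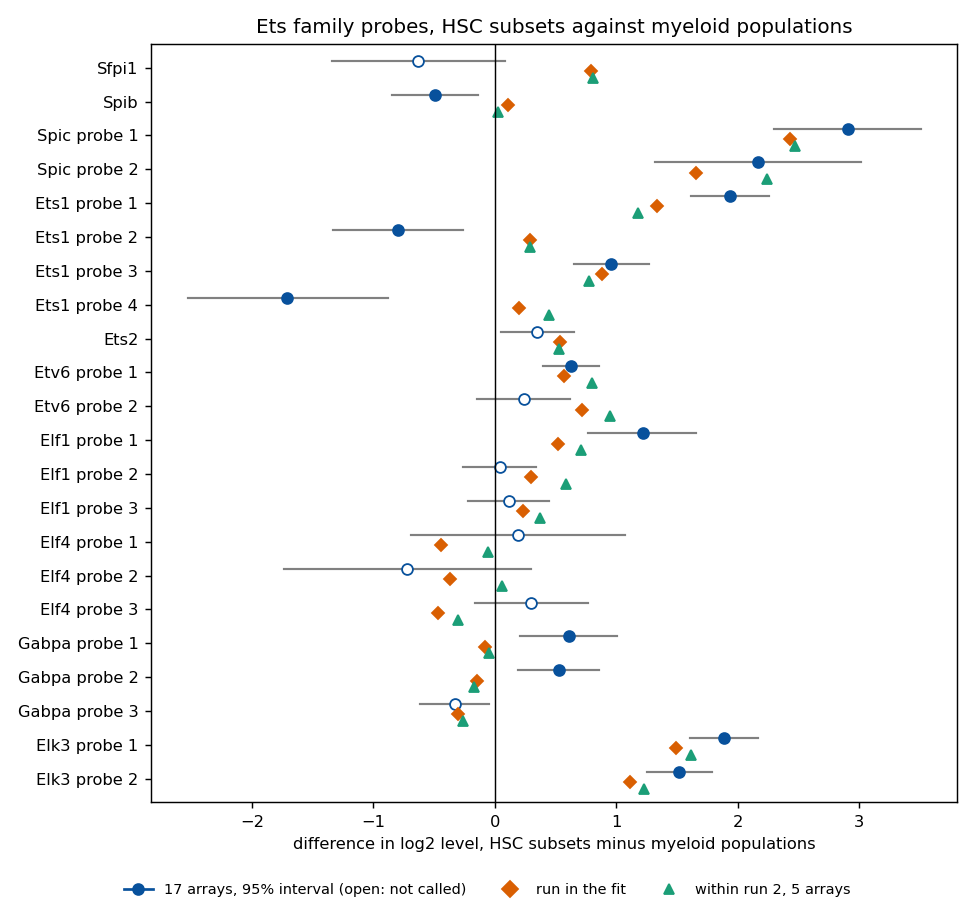
Difference in log2 level between the HSC subsets and the myeloid populations for each of the 22 probes: over all 17 arrays with the unadjusted 95% interval (circles, filled where called), with the scanning run in the fit (diamonds) and within run 2 alone (triangles, 2 against 3 arrays). Spic, Elk3 and Ets1 probes 1 and 3 stay on the right in all 3 readings, whereas Sfpi1 and Ets1 probes 2 and 4 cross 0.

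Myeloid genes known as targets of PU.1 were higher in GMP and CMP than in MEP. All 17 on the list were higher in GMP than in MEP, against 10.5% of all gene names, with a median difference of 3.42 against -0.07 over all gene names. They were led by the receptor gene Csf1r at 5.20, the shared receptor subunit gene Csf2rb at 4.41 and the endotoxin co-receptor gene Cd14 at 4.17. In CMP against MEP 13 were higher and 0 lower, against 10.5% and 7.73% of all gene names. Csf1r (5.13), the protease gene Ctss (3.98) and the adaptor gene Tyrobp (3.50) differed most. Between CMP and GMP, where the difference of PU.1 did not pass, 0 were higher and 6 were lower in CMP, against 3.65% and 2.23% of all gene names. Between the sorts, 6 were higher in the HSC subsets and 1, Csf1r at -1.11, was lower, against 21.7% and 19.1% of all gene names. Genes of mature myeloid cells were higher on the same side, 4 of 6 mature neutrophil genes (Camp by 1.99, S100a8 by 1.61 and S100a9 by 1.41) and 4 of 8 macrophage genes. The mean of the neutrophil genes was 12.9 to 13.68 in LT-HSC, 12.37 to 13.74 in ST-HSC and 10.38 to 12.68 in the other populations, and their part in the result was not tested.

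Partners and antagonists of the Ets factors split by lineage. Of 15 genes 8 were higher in GMP than in MEP and 2 were lower, against 10.5% and 8.51% of all gene names. Irf8, a partner of PU.1 on composite sites, was higher by 5.15 and Cebpa, the granulocyte factor, by 4.76, while Gata1, the erythroid antagonist of PU.1, was lower, at -4.03. Gata1 was at 12.08 ± 0.31 (SD, n = 3) in MEP and at 5.36 in MPP, its lowest mean. Gata2 differed by 0.96 between GMP and MEP and was higher in GMP. Of 10 erythroid genes bound by Gata1, 9 were lower in GMP than in MEP, among them Epor at -6.38 and Klf1 at -6.25, and 1 was higher, Nfe2 at 1.01, which was named after its value was seen.

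Lymphoid genes known as targets of PU.1 or Spi-B behaved otherwise. Of 10 such genes 3 were higher and 3 lower in GMP than in MEP, against 10.5% and 8.51% of all gene names. Between CMP and GMP 2 were higher in CMP and 0 lower, against 3.65% and 2.23% of all gene names. The 2, in the direction of Spib, were the adaptor gene Blnk at 4.42 and the cytokine receptor gene Il7r, which stood clear of background on 0 of 3 GMP arrays. Between LT-HSC and ST-HSC 4 were higher and 0 lower, against 3.5% and 1.08% of all gene names. They were led by the B cell coactivator gene Pou2af1 at 6.32, on the 2 LT-HSC arrays that carried B cell genes.

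Of 16 other Ets genes, 13 were not called between GMP and MEP, where 10.5% of all gene names were higher and 8.51% lower. Erg, like Fli1 a stem cell factor of the family, was higher in GMP than in MEP by 2.63 and higher in CMP by 3.54, and Fli1 by 2.90 and 2.74, and 0 other genes of the 16 were higher. Etv5 was called lower in GMP than in MEP, on a probe well above background on no GMP array and on 1 of 3 MEP arrays. In the HSC subsets 6 were higher than in the myeloid populations and 1 lower, against 21.7% and 19.1% of all gene names. Erg was at 2.24, Fli1 at 1.64 and Etv1 at 1.36, the last well above background on 6 of 17 arrays.

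Genes with patterns most like a member were sought among 11229 gene names that were well above background on at least 9 arrays, by correlation over the 17 arrays, which share populations and runs. For PU.1 they were Myo1f (0.97), Arl11 (0.96), Nfam1, Mbnl2 and Dock2 (0.95 each), and the most opposite were Setd6 (-0.96), Scml2 (-0.95) and Rabep1 (-0.93). For Elk3 they were Arhgap25, Cd34, Sept6, Ndst1 and Snx10 (0.99 each), of which Cd34 encodes a surface protein used in the sort. For Spic they were Zfand3 (0.98), Nab1, Sepp1 and Fnbp1l (0.97 each) and Lrp12 (0.96). For Spib the highest value was 0.83, with Gnb4. Among the members, PU.1 had 0.75 with Etv6 probe 2 and -0.83 with Gabpa probe 2, and Etv6 probe 1 had 0.93 with Elk3 probe 1.

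The promoters of 8 member genes were searched in RefSeq sequence (GRCm38.p6, 250 bases before to 50 after the start, both strands). The letters GAGGAA, a PU.1 box core, were found in 3 of 10 promoter entries, those of Elf4 and Gabpa, against 28.3% of 32851 promoters. The Ets family letters CCGGAAG were found in 1, that of Gabpa, against 8.86%, and the Gata letters AGATAA in 0, against 11.2%. No match says only that these letters are not in the window.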

How the data were processed

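RNA of 17 sorted samples was hybridized to single-color Agilent 4x44k arrays. The authors deposited scanner files whose processed signal is a background-corrected Cy3 intensity per spot, and a table of log2 values normalized by the authors with limma, which served as an alternative. Probe coordinates are those of the scanner files of runs 2 and 3 (mm9). The files of run 1 came from an earlier version of the extraction protocol and carry mm7 coordinates, which were not used. Processed signals were taken to log2 and quantile normalized over 45018 spots, 1639 control spots and outlier spots were dropped, and spots of a probe were averaged (41174 probes). limma 3.58.1 in R 4.3.3 was fitted with 1 mean per population, and p-values were adjusted by Benjamini-Hochberg over all probes. The labels list the replicates as separate samples, and the paper states that several mice were pooled for each. The p-values measure only the spread between these samples, part of which may be technical. The members, lists and tests were chosen with earlier results of these data known. Every member probe is named, and listed genes are named as the 3 largest called differences plus a few preset ones, except 1 gene that is not reported here and Nfe2, which was named after its value was seen. For lists, 1 probe per gene name, the brightest, was used. Alternatives covered scaling, background correction, dim probes, run, slide, scan day, replicate number, probe choice and each array left out. Code was tested on simulated data.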

Additional observations from a re-analysis of the deposited data

How the results depend on the processing

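Sfpi1, Elk3 and Etv6 in GMP and in CMP against MEP, Ets1 probes 1 and 3 in GMP against MEP and against CMP, and Spib in GMP against MEP and against CMP kept their direction and their call under all alternatives that held their probe. Counts of member probes called moved as follows. The F-test count of 15 was 7 with the brightest probe or the mean of the probes of each gene, which tests 10 genes in place of 22 probes, and 12 to 16 with 1 array left out. The count for GMP against MEP (9) was 5 with the brightest probe, 13 with run (25.4% of all probes), 14 with scan day (chosen after seeing the data) and 8 to 10 with 1 array left out. For CMP against GMP (3) it was 6 with run, 6 with scan day and 3 to 4. For CMP against MEP (8) it was 11 with run (25.6% of all probes), 5 with the brightest probe (18.3% of all gene names), 5 with the mean (17.3%) and 6 to 9. For MPP against CMP (6) it was 2 with run, 2 with scan day, 13 with the replicate number as a block over the numbered arrays alone and 3 to 7. For ST-HSC against MPP (0) it was 1 with run, slide or scan day (3.66%, 3.15% and 3.4% of all probes) and 0 to 1. For LT-HSC against ST-HSC (1) it was 0 with the 75th percentile, 2 with normexp, 0 without dim probes, 5 with run, 0 with slide, 5 with scan day and 0 to 1. For HSC subsets against myeloid populations (13) it was 8 with run, 8 with slide, 7 with the brightest probe, 5 with the mean, 7 with scan day and 11 to 15. The share of all probes called moved too, for HSC subsets against myeloid populations to 14.5% with run, 28.7% with slide and 13.2% with scan day, for GMP against MEP to 22.6% with scan day, for CMP against GMP to 8.35% and 8.05% with run and scan day, for MPP against CMP to 3.73% with run, 3.38% with scan day and 33.3% in the replicate block fit, and for LT-HSC against ST-HSC to 8.81%, 7.88% and 1.22% with run, scan day and slide. Where the construction does not show it, the cause was not tested. Among results called in the main fit, signs turned for Spib in HSC subsets against myeloid populations (0.29 with the 75th percentile, 0.11 with run, 0.21 with scan day) and, with run and scan day, for Ets1 probe 2 (0.29, 0.35), Ets1 probe 4 (0.20, 0.31), Gabpa probe 1 (-0.08, -0.10) and Gabpa probe 2 (-0.15, -0.19). Results not called in the main fit turned as well, among them Sfpi1 with run, to 0.79 in the same comparison and to 0.28 in MPP against CMP. Elf4 probe 1 turned in the replicate block fit, which leaves out the unnumbered arrays, to 0.69 in GMP and 0.95 in CMP against MEP. Same-numbered arrays of different runs correlated at -0.06 to 0.01 in their deviations and those of 1 run at 0.13 to 0.52, where in run 1 the number is also the slide. Differently numbered arrays of 1 run gave 0.09 to 0.33. The pairing check (every pair over 0.1) was not met. Precision is limited by the number of arrays, and by signal near background for Spib in GMP, Spic probe 2, Spic probe 1 in MEP, Ets1 probe 4 and Elf4.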
